A study of Mus musculus with 6 samples.

Results

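Mpped2, Bcat1, Arnt2, Plch1, Gulo and Ccdc68 are 6 genes with low signal in granulosa cells of Foxo1 and Foxo3 double-knockout mice, among 18193 genes measured. They were chosen by their measured values, as genes with large falls from wild type in the double knockout, so their differences from wild type are given here as a description and without a test. The choice names neither an age nor a threshold. The array carried 11 probe sets with one of these symbols and no other, of 34945 probe sets that name a single gene: 3 for Bcat1, 3 for Arnt2, 2 for Mpped2 and 1 each for Plch1, Gulo and Ccdc68. All 11 are reported, and no filter on low values was applied.

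Total RNA of ovarian granulosa cells was hybridised to 6 arrays, 2 per group. Wild-type mice at day 25 formed the control group. The other groups were knockout mice at day 25 and at 2 months, of genotype Foxo1 f/-; Foxo3 f/-; Amhr2-cre, called dKO here, in which one allele of each Foxo gene is floxed and the other is written as a minus. The recombinase is driven by Amhr2, the gene of the anti-Müllerian hormone receptor of granulosa cells, so other cells of the preparation keep the floxed alleles if they do not express it. The strain background of every group was mixed, from FVB and C57BL/6. Cells of wild-type mice aged 2 months are not analysed here, so age and genotype differ together between the 2-month arrays and the wild-type arrays. The labels do not say whether replicates came from separate animals, and the p-values below measure only the spread between these arrays, which may be technical.

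Granulosa cells surround the oocyte, respond to FSH and make oestrogen and inhibin. FOXO1 and FOXO3 are forkhead transcription factors that bind DNA while insulin and PI3K signalling is low and leave the nucleus when AKT phosphorylates them. FOXO1 is abundant in granulosa cells of growing follicles. The 6 genes form no known pathway: BCAT1, GULO, MPPED2 and PLCH1 are enzymes of unrelated chemistry, ARNT2 is a transcription factor and CCDC68 is a protein of the centriole.

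RefSeq start sites of 4 of the 6 genes were used (build GRCm38.p6). They gave 8 windows of 300 bases that run from 250 bases before to 50 after the start. They are shown because these genes were low on the same arrays. The forkhead core TAAACA was searched on both strands, with the longer GTAAACA, which contains it. The core lay in 1 of the 8 windows, or 12.5%, against 13.4% of 32851 windows of all genes, and the longer motif lay in 0 of the 8, against 3.65%. The 1 match was in the second Plch1 window, chr3:63851236-63851535 on the minus strand, with its first base at position -56 from the start. That window is printed first, 5′ to 3′ on the strand of the gene, with the core in capitals. The Bcat1 window chr6:145076108-145076407 (minus strand, 41.0% G and C) and the Arnt2 window chr7:84409989-84410288 (minus strand, 76.7% G and C) follow as the windows of lowest and highest G and C content.
Plch1: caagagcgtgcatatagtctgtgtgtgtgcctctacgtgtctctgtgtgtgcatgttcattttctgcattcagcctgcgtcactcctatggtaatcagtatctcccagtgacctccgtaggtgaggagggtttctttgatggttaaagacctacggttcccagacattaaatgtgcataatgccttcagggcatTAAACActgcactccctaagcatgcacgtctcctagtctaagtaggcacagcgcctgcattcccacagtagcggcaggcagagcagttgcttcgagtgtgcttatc
Bcat1: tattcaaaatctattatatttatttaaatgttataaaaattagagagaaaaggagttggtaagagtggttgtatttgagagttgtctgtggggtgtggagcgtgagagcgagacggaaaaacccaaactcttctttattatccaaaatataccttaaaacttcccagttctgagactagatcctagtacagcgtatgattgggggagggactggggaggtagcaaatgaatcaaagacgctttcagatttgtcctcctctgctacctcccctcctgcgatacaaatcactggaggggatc
Arnt2: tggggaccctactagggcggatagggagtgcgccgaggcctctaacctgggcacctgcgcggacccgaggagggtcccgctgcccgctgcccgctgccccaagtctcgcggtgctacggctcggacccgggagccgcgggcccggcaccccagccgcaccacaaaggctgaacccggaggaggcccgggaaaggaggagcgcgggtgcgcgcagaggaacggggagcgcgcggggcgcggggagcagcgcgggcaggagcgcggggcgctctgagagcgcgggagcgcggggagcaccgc
The windows differ widely in base composition, and the searched letters occur only in the first of the 3 shown. A match is a description of letters and not evidence of binding, and the absence of these letters says nothing of sites elsewhere.

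The arrays were alike in overall level, with a median intensity of 73 or 74 on each. Replicate 1 of dKO at 2 months stood apart, with r from 0.964 to 0.978 against the other arrays over all probe sets, where the other 5 had r of at least 0.982 with each other. Among the 6 genes and Foxo1, the 2-month differences of Gulo and Foxo1 moved by over 1.5 times without it. These are given without it as well. Values of other genes and markers could move as much. Foxo1 on its brightest probe set read 10319 and 7666 in wild type, 904 and 2291 in day 25 dKO, and 126 and 343 in 2-month dKO. Its mean was thus 17.8% of the wild-type mean at day 25 and 2.61% at 2 months. The 2-month log2 difference from wild type was -5.41, and -4.69 without replicate 1 of that group. Foxo3 stood at 196% of its wild-type mean at day 25 and at 146% at 2 months, so it was not lower, and the labels do not say whether its probe sets lie in the deleted part. Of 12 granulosa markers, Inha lay between 26038 and 27499 on the 6 arrays, and the others are given with the marker lists. Amhr2, which drives the Cre, read 11809 and 12482 in wild type, 9102 and 8943 in day 25 dKO, and 12185 and 9436 at 2 months, so both day 25 dKO arrays lay below wild type (log2 difference -0.43 ± 0.15, SE).

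The dKO arrays at day 25 lay below both wild-type arrays for 5 of the 6 genes, Ccdc68 being the exception, where 19.5% of all genes did so. The dKO arrays at 2 months lay below both wild-type arrays for all 6 genes, against 17.3% of all genes. These contrasts chose the genes, so nothing is read from either count. The median log2 difference from wild type over the 6 genes was -1.28 at day 25 and -2.40 at 2 months, and over all 18193 genes it was 0.03 and 0.04. In bulk RNA, fewer cells that express a gene and less RNA per cell cannot be told apart.

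**Figure D1:**
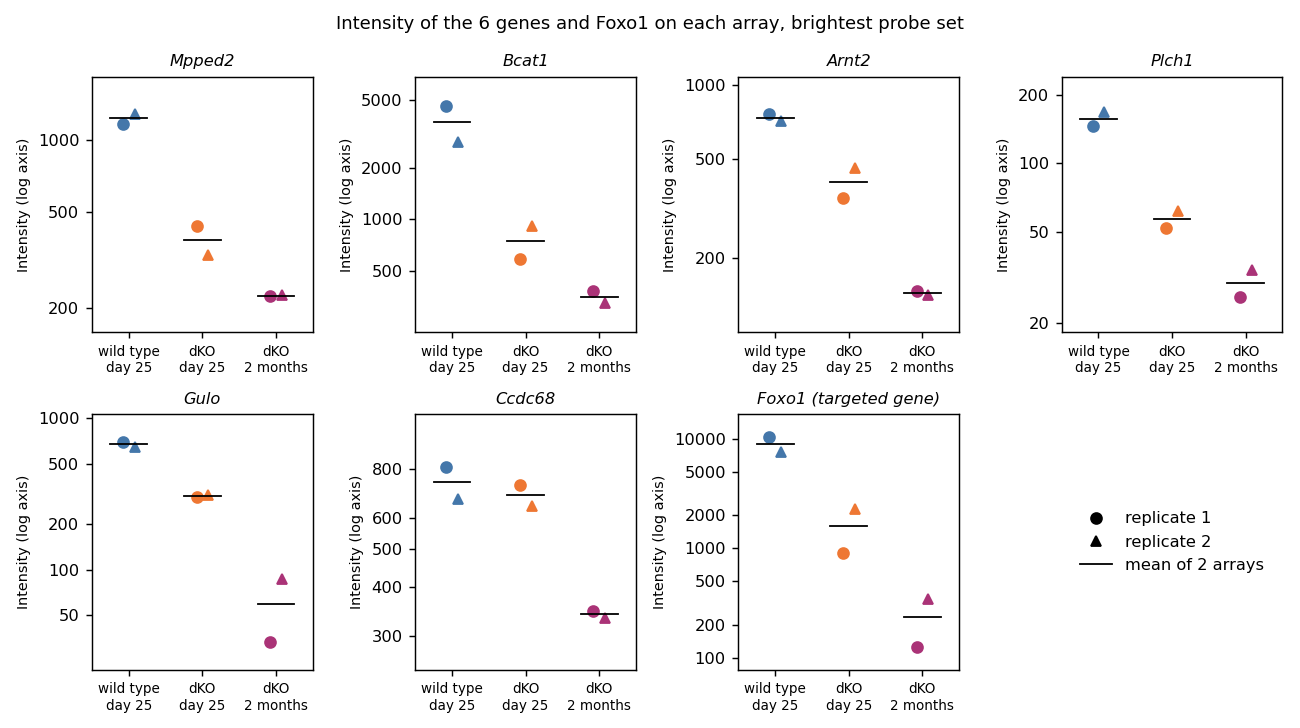
Intensity (log axis) of each of the 6 genes and of Foxo1 on every array, brightest probe set, with replicate 1 as a circle, replicate 2 as a triangle and the mean of 2 arrays as a line. Except for Ccdc68 at day 25, the dKO arrays lie below the wild-type arrays, and for each of the 6 genes the 2-month arrays lie below the day 25 dKO arrays.

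Bcat1 encodes the cytosolic branched-chain aminotransferase, which moves the amino group of leucine, isoleucine and valine to α-ketoglutarate. Its brightest probe set read 4583 and 2847 in wild type, 587 and 915 in day 25 dKO, and 379 and 323 in 2-month dKO. The 3 groups did not overlap, and the wild-type replicates differed by more (1.61 times) than those of any other of the 6 genes. The mean was 20.2% of wild type at day 25, the lowest share of the 6 genes at that age, and 9.45% at 2 months. On the log2 scale Bcat1 differed from wild type by -2.30 ± 0.32 (SE) at the earlier age, rank 13 from the lowest among 18193 genes, and by -3.36 ± 0.32 at the later, rank 8. Both other Bcat1 probe sets were low in dKO as well and differed from each other in the age comparison. One read 476 and 298 in wild type, 60 and 86 in day 25 dKO, and 58 and 48 at 2 months, with a log2 difference between the dKO ages of -0.44 ± 0.30. The dimmest read 404 and 213 in wild type, 65 and 62 at day 25, and 100 and 49 at 2 months, so its dKO groups overlapped. Thus the low dKO level was seen on all 3 Bcat1 probe sets, and dKO arrays at 2 months that were lower again, without overlap, on 2 of them.

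Gulo encodes L-gulonolactone oxidase, the last enzyme of vitamin C synthesis, which mice have and humans lack. Its single probe set read 697 and 642 in wild type, 301 and 309 in day 25 dKO, and 33 and 86 in 2-month dKO. The day 25 replicates were nearly equal in both genotypes, whereas the 2-month replicates differed by 2.61 times. Gulo stood at 45.6% of wild type at day 25 and at 8.89% at 2 months. As log2 differences from wild type these were -1.13 ± 0.45 (SE) and -3.62 ± 0.45, ranks 97 and 4 from the lowest. The 2-month difference was -2.94 without replicate 1 of that group and -4.30 without replicate 2. Gulo had the lowest 2-month value of the 6 genes with both arrays, and without replicate 1 Bcat1 had it, at -3.48.

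Mpped2 encodes a metallophosphoesterase that hydrolyses cyclic nucleotides in vitro. On the brightest of its 2 probe sets the values were 1172 and 1288 in wild type, 438 and 333 in day 25 dKO, and 225 and 226 in 2-month dKO. No group overlapped another, and the replicates of wild type and of dKO at 2 months were close to each other. The second probe set gave the same order, with 752 and 957, then 413 and 364, then 165 and 237. Mean intensity on the brighter one was 31.3% of wild type at day 25 and 18.3% at 2 months, and on the dimmer one 45.5% and 23.5%. For the brighter one the log2 differences from wild type were -1.68 ± 0.16 and -2.44 ± 0.16 (SE).

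Plch1 encodes phospholipase C eta 1, which cleaves a membrane phosphoinositide to give inositol trisphosphate and diacylglycerol and is activated by calcium. It was dim, with 146 and 167 in wild type, 52 and 62 in day 25 dKO, and 26 and 34 in 2-month dKO. The groups did not overlap, but the 2-month values lie near the low end of the array's range, whose lowest value was 6. Its share of the wild-type mean was 36.4% at day 25 and 19.2% at 2 months, with log2 differences of -1.44 ± 0.18 and -2.35 ± 0.18 (SE). With a pseudocount of 16 in place of 1, the 2-month difference was -1.91.

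Arnt2 encodes a bHLH-PAS protein, the partner that lets SIM1, NPAS4, HIF1A and related factors bind DNA. Its brightest probe set read 758 and 711 in wild type, 350 and 463 in day 25 dKO, and 148 and 142 in 2-month dKO. Each group was separate from the next, and the 2-month replicates were nearly equal. The earlier dKO mean was 55.3% of wild type and the later 19.7%, with log2 differences of -0.87 ± 0.16 and -2.33 ± 0.16 (SE), ranks 191 and 32 from the lowest. Its other probe sets were dim. One read 85 and 112 in wild type, 52 and 54 at day 25, and 57 and 47 at 2 months, so the dKO ages overlapped there. The other lay between 16 and 20 on every array, with overlapping groups. Averaged over its 3 probe sets, Arnt2 differed from wild type by -0.55 at day 25 and by -1.07 at 2 months on the log2 scale.

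Ccdc68 encodes a coiled-coil protein of the subdistal appendages, which anchor microtubules at the mother centriole. It read 812 and 670 in wild type, 729 and 643 in day 25 dKO, and 349 and 335 in 2-month dKO. The wild-type and day 25 dKO arrays overlapped, and the 2-month arrays lay apart from all of them. Ccdc68 was at 92.6% of the wild-type mean at day 25 and at 46.2% at 2 months. As a log2 difference the day 25 value was -0.11 ± 0.14 (SE), and 0.03 without wild-type replicate 1. At 2 months it was -1.11 ± 0.14. The description of a strong reduction in knockout cells therefore held for Ccdc68 only at 2 months, an age for which no wild-type array was analysed here.

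**Figure D2:**
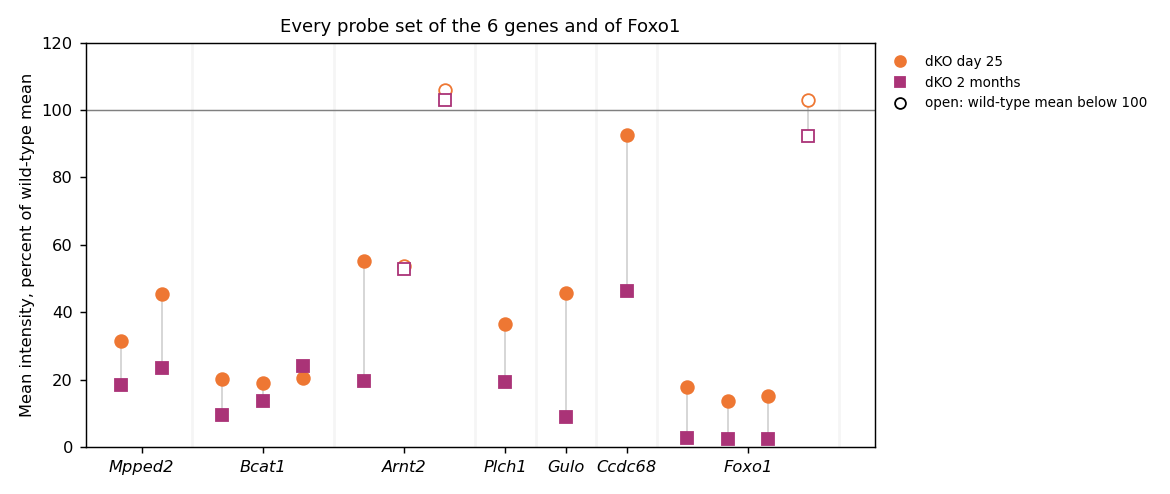
Mean intensity in dKO as a percent of the wild-type mean for all 11 probe sets of the 6 genes and the 4 of Foxo1, at day 25 (circles) and at 2 months (squares), with open symbols for probe sets whose wild-type mean was below 100. The probe sets lie below 100% except 1 dim one of Arnt2 at both ages and 1 dim one of Foxo1 at day 25, and 1 Bcat1 probe set has the higher share at 2 months.

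Setting the later dKO arrays against the earlier ones asks whether the low levels were lower still at the greater age. All 6 genes had both 2-month arrays below both day 25 dKO arrays on the brightest probe set, and Foxo1 did too, where 17% of all genes did so. The day 25 dKO arrays entered the choice of the genes. As the choice names no age, the 2-month arrays may have entered it too, and for Ccdc68 they evidently did. The count, and the differences, p-values and ranks of this contrast below, are therefore no independent support. The log2 difference between the ages was -2.49 ± 0.45 (SE) for Gulo, the largest of the 6, followed by -1.47 ± 0.16 for Arnt2. The next were -1.06 ± 0.32 for Bcat1, -1.0 ± 0.14 for Ccdc68, -0.91 ± 0.18 for Plch1 and -0.76 ± 0.16 for Mpped2, and neighbours among these 4 lie within their standard errors of each other. Foxo1 had -2.78 ± 0.65. The median over the 6 genes was -1.03, against 0.02 over all genes.

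None of these differences passed the test over all probe sets. Limma gave adjusted p = 0.712 (Benjamini-Hochberg over 45037 probe sets) to Gulo, Arnt2, Bcat1, Plch1, Mpped2 and Foxo1 alike, since 0 probe sets passed 0.05 (0%) and 0.712 was the smallest adjusted p of the contrast. Without adjustment, 2514 probe sets had p under 0.05. No p is given for Ccdc68. Of genes on their brightest probe set, 2.91% were lower and 3.73% higher at that level. By rank from the lowest, Gulo was 11, Arnt2 212, Bcat1 488, Plch1 658 and Mpped2 887 of 18193 genes, with Foxo1 at 5. Left without dKO 2-month replicate 1, the array that stood apart, the log2 difference was -1.81 for Gulo and -2.07 for Foxo1, and without replicate 2 of that group -3.17 and -3.50. For Foxo1 it was also -3.45 without dKO day 25 replicate 1 and -2.11 without replicate 2. For the other 5 genes the 2-month arrays were closer to each other, and without replicate 1 the difference was -1.50 for Arnt2, -1.18 for Bcat1, -1.03 for Ccdc68, -0.72 for Plch1 and -0.75 for Mpped2.

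**Figure D3:**
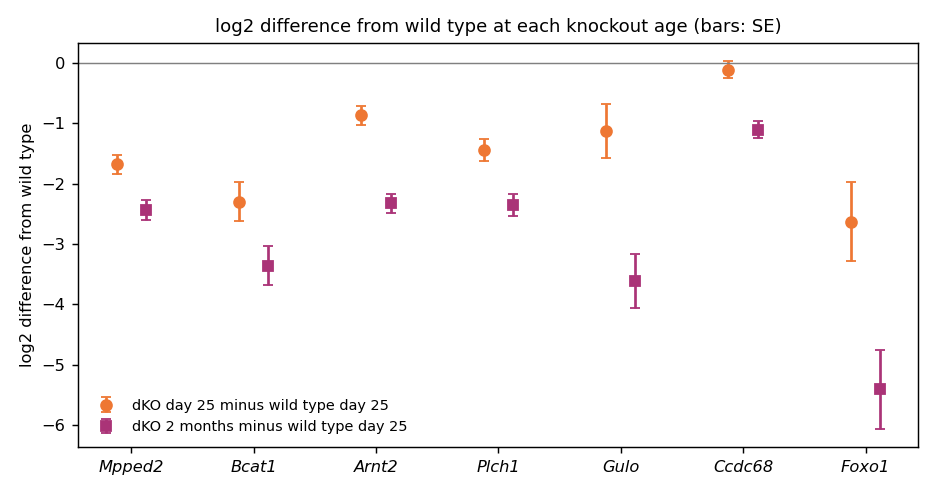
log2 difference from wild type at day 25 for dKO at day 25 (circles) and dKO at 2 months (squares), brightest probe set, with bars of 1 SE from the fit of all 6 arrays. The 2-month value is the lower one for each gene, with a difference between the ages from -0.76 for Mpped2 to -2.49 for Gulo, and of -2.78 for Foxo1.

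To set each gene beside Foxo1, the log2 value of Foxo1 was subtracted from that of the gene on each dKO array. The change of this quantity from day 25 to 2 months was 2.03 for Mpped2, 1.87 for Plch1, 1.79 for Ccdc68, 1.72 for Bcat1 and 1.32 for Arnt2, so by these means the difference of Foxo1 between the ages was larger than theirs. For Gulo the change was 0.29, and it was -0.49 with every probe set of each gene averaged. Gulo has 1 probe set, so the averaging moved only Foxo1, whose difference between the ages became -2.0 in place of -2.78. That average includes 1 Foxo1 probe set that lay between 14 and 22 on every array. The exact two-sided permutation test gave p = 0.33 for each of Mpped2, Plch1, Bcat1 and Arnt2 and p = 1 for Gulo, with no test of Ccdc68, and with 2 arrays against 2 no p below 0.33 can be reached. By its mean, the difference of Gulo between the ages was the closest of the 6 in size to that of Foxo1.

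Among arrays of 1 group, the genes did not follow Foxo1 alike. Foxo1 was higher on replicate 2 in both dKO groups, by 2.53 times at day 25 and 2.72 times at 2 months. At day 25, Bcat1 (1.56 times), Arnt2 (1.32), Plch1 (1.19) and Gulo (1.03) were higher on that array too, while Mpped2 (0.76) and Ccdc68 (0.882) were lower. At 2 months Gulo (2.61 times) and Plch1 (1.31) were higher on replicate 2. Mpped2 was equal within 1 unit of intensity, and Arnt2 (0.959), Ccdc68 (0.96) and Bcat1 (0.852) were lower. Over all 6 arrays the Pearson r with Foxo1 on the log2 scale ran from 0.852 for Ccdc68 to 0.976 for Plch1. These correlations share the group differences that chose the genes and describe 6 arrays only.

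Markers of other cell types differed between the groups. The summed intensity of 17 oocyte markers, replicate 1 first, was 52780 and 31740 in wild type. It was 72870 and 105288 in day 25 dKO, and 11803 and 59645 in 2-month dKO. All 17 had higher dKO means at day 25 and all 17 lower means at 2 months than at day 25. Zp3, a protein of the zona pellucida, read 463 on dKO 2-month replicate 1 and 5404 on replicate 2. On those same arrays the ratio of replicate 2 to replicate 1 lay between 0.852 and 1.0 for Mpped2, Arnt2, Ccdc68 and Bcat1, while it was 1.31 for Plch1 and 2.61 for Gulo. The part of oocyte content in the Gulo and Plch1 values was not tested.

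Leukocyte markers (21 genes) summed to between 3670 and 7745 in wild type, 10366 and 18615 in day 25 dKO, and 12197 and 33859 at 2 months. Endothelial markers (14 genes) ran from 1273 to 1554, from 1607 to 2297 and from 2442 to 4588. Stromal and muscle markers (16) ran from 20506 to 29244, from 34419 to 42871 and from 32375 to 58695. Theca markers (7) ran from 21221 to 24282, from 16325 to 30035 and from 38320 to 46969, sums that rest largely on Hsd3b1, at 12568 to 24919. Cyp17a1 read 1275 and 1509 in wild type, 389 and 5073 in day 25 dKO, and 12804 and 15028 at 2 months. Of the 7 theca genes, 6 had a higher mean at 2 months than in wild type and 1 a lower. Surface epithelium markers (10) ran from 3197 to 3508, from 3823 to 4584 and from 4446 to 5658. Granulosa markers (12) summed to 103880 to 116312 in wild type, 112751 to 123695 in day 25 dKO and 107989 to 123249 at 2 months, sums that rest on the brightest of them. Single granulosa markers differed. Fst, the activin-binding follistatin, read 9065 and 9779 in wild type, 10515 and 7416 in day 25 dKO, and 4491 and 5571 at 2 months. Esr2, oestrogen receptor beta, read 590 and 522, then 515 and 352, then 213 and 291. Their log2 differences from wild type at 2 months, -0.91 ± 0.21 and -1.15 ± 0.25 (SE), were near that of Ccdc68, while Foxl2 had 0.74 ± 0.23. Between the dKO ages 8 of the 12 had the lower mean at 2 months, 2 of them (Fst and Esr2) at an unadjusted p under 0.05 in limma, and Foxl2 was higher at that level. No marker is at 0, since the lowest value in the table is 6, and the part of these cells in the levels of the 6 genes was not tested.

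Families and pathways were listed by knowledge of the genes, and the counts below leave out the 6 genes themselves. At day 25 against wild type, limma gave an unadjusted p under 0.05 to 3.44% of all genes in the lower direction and to 4.89% in the higher, and 0 probe sets (0%) passed an adjusted p of 0.05, where 3668 did so without adjustment. List counts below use the unadjusted threshold and stand beside these shares, and beside 2.91% lower and 3.73% higher between the dKO ages. They are small and unstable: of 24 such counts, 23 moved under some setting, up to 6 genes at most.

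In the breakdown of branched-chain amino acids, 23 genes besides Bcat1 were measured. At day 25, 0 were lower and 1 higher by that threshold, and between the dKO ages 0 were lower and 3 higher. Bcat2, the mitochondrial aminotransferase of the same reaction, was 170 ± 38.2 in wild type, 159.5 ± 0.707 in day 25 dKO and 186 ± 12.7 at 2 months (SD, n = 2). Acat1, a thiolase of isoleucine breakdown, was 3294 ± 173 in the day 25 dKO against 2479.5 ± 34.6 in wild type. The 3 that were higher at 2 months were Acadsb, a dehydrogenase of isoleucine breakdown, at 695 ± 96.2 against 501 ± 35.4, Aldh6a1 of the valine branch at 2459.5 ± 356 against 1909 ± 55.2, and Mmut, methylmalonyl-CoA mutase, at 1714 ± 19.8 against 1399.5 ± 131. The median log2 difference of the 23 genes was -0.07 at day 25 and 0.14 between the ages. Bcat1, which was chosen for its fall, had -2.30 and -1.06. The count of 3 ran from 1 to 4 over the settings, with 1 without dKO day 25 replicate 2 or either wild-type array, and 2 genes were lower at day 25 with probe sets averaged. The 1 higher at day 25 was 3 without either 2-month array and 0 without dKO day 25 replicate 1 or wild-type replicate 2.

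Of the 12 other genes of vitamin C synthesis, transport and recycling, 1 was lower and 3 higher at day 25, and 0 either way between the ages. Ugdh, which makes UDP-glucuronate upstream of GULO, was 1243 ± 24.0 in the day 25 dKO against 1508 ± 84.9 in wild type (SD, n = 2). Slc2a1, a glucose transporter that also carries the oxidised vitamin, was 1621.5 ± 141 against 1216.5 ± 108. Slc23a3 and Gsto2 were the others higher, at 160.5 ± 61.5 against 69.5 ± 27.6 and 284 ± 82.0 against 55 ± 55.2. Slc23a2, the vitamin C transporter of most tissues, had log2 differences of 0.23 at day 25 and -0.09 between the ages. Rgn, the lactonase just before GULO, had 0.50 ± 0.63 and -0.74 ± 0.63 (SE). It read 217 and 184 in day 25 dKO and 64 and 221 at 2 months, so the dKO ages overlapped. Only replicate 1 at 2 months, the array that stood apart, was low. The median of the list was 0.29 at day 25 and -0.06 between the ages. At day 25 the count higher was 1 without dKO replicate 2, and the count lower was 0 without either dKO array of that age. Between the ages 2 genes were lower without dKO 2-month replicate 2.

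Of 19 other genes of phospholipase C and its inositol phosphate product, 0 were lower and 2 higher at day 25, and 1 was lower and 2 higher between the ages. Itpr3, a receptor that releases calcium on binding inositol trisphosphate, was 166 ± 5.66 in wild type, 234.5 ± 23.3 in day 25 dKO and 326.5 ± 0.707 at 2 months (SD, n = 2). Plcg2, an isozyme acting below tyrosine kinases, was 218 ± 35.4, 372.5 ± 107 and 232 ± 43.8. Plch2, the nearest relative of Plch1, had log2 differences of 0.49 ± 0.21 (SE) at day 25 and 0.40 ± 0.21 between the ages, opposite in sign to Plch1. Itpr2 was the gene lower and Plcb4 the other gene higher at 2 months. The count higher between the ages was 6 without dKO 2-month replicate 2 and 1 without replicate 1, and the count higher at day 25 ran from 1 to 4 over the settings.

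Among 18 other bHLH-PAS factors and coactivators, 0 were lower and 1 higher at day 25, and 0 either way between the ages. The 1 was Ncoa3, a coactivator, at 577 ± 4.24 against 467 ± 9.90 in wild type (SD, n = 2). Arnt, the close relative that can stand in for ARNT2 as a partner, was 559 ± 4.24 in wild type, 595 ± 25.5 in day 25 dKO and 601 ± 52.3 at 2 months. Hif1a, a hypoxia-inducible partner, was 6259.5 ± 38.9, 8770.5 ± 1125 and 8498 ± 1970. Epas1 of the same list went the other way, at 5086 ± 936, 3210 ± 1067.7 and 4248 ± 631. Its log2 difference at day 25 was -0.69 ± 0.28 (SE). The count higher at day 25 was 4 without either 2-month array and 0 without wild-type replicate 1. Arnt2 was the lowest of the 19 measured by log2 difference in both comparisons. It was chosen for its fall on these arrays, so nothing is read from that place.

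Of 10 other metallophosphoesterases, 0 were lower and 2 higher at day 25, and 1 was lower and 1 higher between the ages. Mppe1, which trims GPI anchors, was 624.5 ± 78.5 in wild type, 1043 ± 190 in day 25 dKO and 1525.5 ± 234 at 2 months (SD, n = 2). Acp5, an acid phosphatase typical of macrophages and osteoclasts, was 47.5 ± 0.707, 99 ± 21.2 and 121 ± 9.90. On replicates 1 and 2 it read 84 and 114 in day 25 dKO and 128 and 114 at 2 months. Leukocyte markers summed to 18615 and 10366 on the former arrays and to 33859 and 12197 on the latter. Their part in the Acp5 values was not tested. Mpped1, the closest relative of Mpped2, was 122.5 ± 17.7, 179 ± 29.7 and 103 ± 19.8. It was not lower at day 25, and it was the 1 gene of the list lower between the dKO ages, by -0.79 ± 0.21 (SE) on the log2 scale, close to the -0.76 of Mpped2. Without dKO day 25 replicate 2 the count lower between the ages was 0, and without either wild-type array or dKO 2-month replicate 1 the count higher was 0.

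Of 11 other genes of the subdistal appendage and its microtubule anchors, 2 were lower and 0 higher at day 25, and 1 was lower and 0 higher between the ages. Cep170 was 300 ± 17.0 in the day 25 dKO against 394.5 ± 3.54 in wild type, and Ninl was 259.5 ± 82.7 against 444 ± 59.4 (SD, n = 2). Ccdc120, which sits with CCDC68 at the appendage, was 136.5 ± 2.12 in wild type, 136 ± 26.9 in day 25 dKO and 97.5 ± 10.6 at 2 months, and it was the gene lower between the ages. Ccdc120 thus had its lower value at the same age as Ccdc68, by a smaller log2 difference of -0.47 ± 0.17 (SE) between the ages. Nin had a larger one than Ccdc68, -1.23 ± 0.53, but did not pass the unadjusted threshold. It read 582 and 455 in wild type, 787 and 936 in day 25 dKO, and 211 and 633 at 2 months. By mean, 5 of the 11 were higher at 2 months than in day 25 dKO. The count lower between the ages ran from 0 to 3, with 3 without dKO 2-month replicate 2 and 0 without replicate 1, dKO day 25 replicate 2 or either wild-type array. At day 25 it was 1 without any 1 of the arrays other than dKO day 25 replicate 2. None of the list genes named here passed over all probe sets in limma, with adjusted p from 0.474 to 1 at day 25 and from 0.712 to 1 between the ages.

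**Figure D4:**
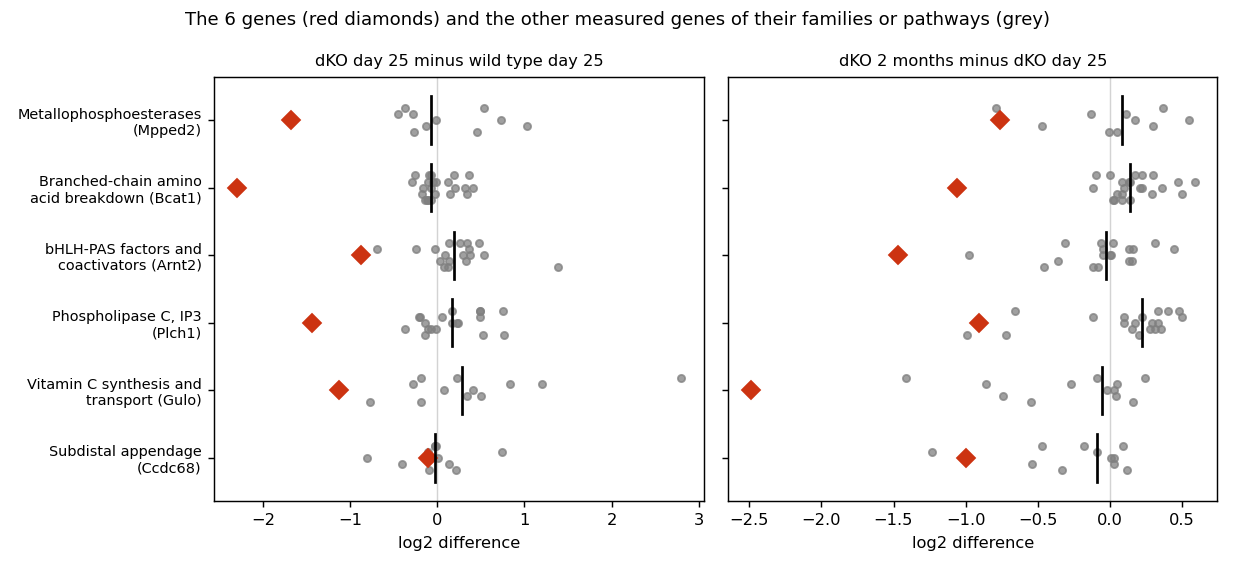
log2 difference of each of the 6 genes (red diamonds) and of the other measured genes of its family or pathway (grey points, black line at their median), for dKO against wild type at day 25 on the left and for dKO at 2 months against day 25 on the right. The diamonds lie at the low end of each list except that 3 other genes (Ninl, Cep170 and Cep128) are lower than Ccdc68 at day 25, and that between the ages 1 other gene is as low as or lower than each of Mpped2, Plch1 and Ccdc68. The 6 genes were chosen for their falls on these arrays, so nothing is read from their place in the lists.

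The genes whose pattern over the 6 arrays was most like that of each member were found by Pearson r of log2 values among 11076 genes with a mean intensity of at least 100. For Mpped2 these were Gadd45a (r = 0.995), Zdhhc21 (0.995) and Srsf11 (0.99). Gadd45a, a gene of growth arrest and the DNA damage response, read 1009 and 998 in wild type, 532 and 455 in day 25 dKO, and 400 and 391 at 2 months. For Bcat1 they were Tjp1 (0.997), Naa35 (0.994) and Ppig (0.993). For Plch1 they were Lrch2 (0.994), Dlgap1 (0.993) and Igfbp2 (0.99), the last an IGF binding protein at 2046 and 2064, then 1003 and 1255, then 781 and 792.

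Arnt2 was most like Asap1 (0.995), Zfp322a (0.994) and Sema4d (0.994), a semaphorin that read 420 and 448 in wild type, 299 and 344 in day 25 dKO, and 158 and 162 at 2 months. Gulo was most like Cacna2d2 (0.988), Arhgef7 (0.987) and Igsf3 (0.986), an immunoglobulin superfamily gene at 1354 and 1458, then 714 and 933, then 285 and 459. For Ccdc68 they were Atad2b (0.985), Ddx46 (0.983) and Atg2b (0.982). Likeness of pattern did not mean likeness of size, since Tjp1 differed from wild type by -0.31 at 2 months on the log2 scale where Bcat1 differed by -3.36. These r values describe 6 points that share the group differences.

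The 6 genes lie on chromosomes 2 (Mpped2), 3 (Plch1), 6 (Bcat1), 7 (Arnt2), 14 (Gulo) and 18 (Ccdc68), so no pair shares a chromosome. The nearest measured gene on each side was looked up in RefSeq. Of these 12 neighbours, 5 had both dKO arrays below both wild-type arrays at day 25 (19.5% of all genes did) and 3 had both 2-month arrays below both day 25 dKO arrays (17% of all genes). The 5 at day 25 were Adam2 beside Gulo, with a log2 difference from wild type of -0.53 on a dim probe set, Abhd17c beside Arnt2 and Tcf4 beside Ccdc68 with -0.42 each, Arl14ep beside Mpped2 with -0.09 and Clu beside Gulo with -0.05. Adam2, Abhd17c and Tcf4 thus differed by more than Ccdc68 (-0.11) and by less than the other 5 genes. Clu, the clusterin gene next to Gulo and one of the brightest of these neighbours, read 16900 and 16228 in wild type, 16161 and 15870 in day 25 dKO, and 25395 and 17294 at 2 months, which is the opposite of the Gulo pattern at the later age. Rab27b, beside Ccdc68, had -0.90 ± 0.55 (SE) between the dKO ages, a difference as large as that of Plch1 with a wider error, and its wild-type values of 253 and 107 overlapped those of dKO at day 25.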

How the data were processed

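Total RNA from 6 granulosa cell preparations was labelled with biotin and hybridised to 1 array each, per the labels. The table as deposited gives whole-number intensity values, 1 per probe set and linear in scale; the submitters' processing notes name affy and RMA, and versions, genome build and rounding are not given in the sources used here. RMA gives all arrays 1 distribution, which hides a shift of most genes. Of 45101 probe sets, 64 controls were left out and 45037 fitted as log2(value + 1), a scale that understates changes of dim genes. A gene was represented by its probe set of highest mean intensity.

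R 4.3.3 and limma 3.58.1 fitted a mean per group to all 6 arrays (3 residual degrees of freedom), with two-sided contrasts and Benjamini-Hochberg adjustment over 45037 probe sets at 0.05; the fit was tested on simulated data. Promoters and gene order came from RefSeq GRCm38.p6. Precision is limited by having 2 arrays per group. The 6 genes and the family and marker lists were chosen with earlier results of these data known. Named genes were the 6 members, their neighbours and the 3 most similar genes of each, passing over clone and gene-model names. From each list, up to 3 of smallest p per comparison were named. Relatives such as Bcat2, Arnt, Plch2, Hif1a, Epas1, Rgn, Slc23a2, Mpped1 and Nin were added for their role or after their values were seen. So were Zp3, Fst and Esr2 among the markers. Alternatives were another pseudocount, a filter on dim probe sets, 2 normalizations, a trended, robust prior variance, fits of 4 arrays, the mean of all probe sets, a replicate block and leaving out each array.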

Additional observations from a re-analysis of the deposited data

How the results depend on the processing

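No probe set passed an adjusted p of 0.05 in limma under any setting of the day 25 contrast or the age contrast, so no call of a gene was gained or lost. The numbers of genes at an unadjusted p under 0.05 did move. Between the dKO ages, 679 were higher and 529 lower. Limited to probe sets of mean intensity at least 100, 338 were higher. With only the 4 arrays compared, 334 were lower. Leaving out either wild-type array is the same fit for this contrast, since a group of 1 array adds nothing to the spread. Leaving out 1 array gave 319 (without dKO day 25 replicate 1) to 2325 (without dKO 2-month replicate 2) higher and 257 (without dKO day 25 replicate 2) to 2657 (without dKO 2-month replicate 2) lower. At day 25 against wild type, 890 were higher and 625 lower. The intensity filter left 545 and 360, and the 4 arrays alone gave 1647 and 1108. Leaving out 1 array gave 528 (without wild-type replicate 1) to 1647 (without dKO 2-month replicate 1) higher and 294 (without dKO day 25 replicate 1) to 1108 (without dKO 2-month replicate 1) lower. The cause of these moves was not tested.

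The correlation of replicate differences was -0.16 for wild type with dKO at day 25 and -0.21 for wild type with dKO at 2 months. It was 0.06 for the dKO ages. These values cannot decide whether the replicate numbers pair the arrays. With the replicate block the age difference of Mpped2 stayed at -0.76 and the adjusted p of limma was 0.77 for Mpped2, Bcat1, Arnt2, Plch1 and Gulo. A crossed block, chosen after seeing the data, gave 1341 genes higher at day 25 and 1231 lower between the ages. With it the SE of the age difference was 0.30 in place of 0.65 for Foxo1 and 0.39 in place of 0.45 for Gulo. For Ccdc68 it was 0.15 in place of 0.14.

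Ccdc68 reversed at day 25, from -0.25 without wild-type replicate 2 to 0.03 without wild-type replicate 1. The Gulo difference relative to Foxo1 became -0.49 with all probe sets averaged, which changed the Foxo1 value and not that of Gulo. The age difference stayed negative in all settings for the 6 genes and ran from -3.17 to -1.81 for Gulo, -1.67 to -0.51 for Arnt2, -1.38 to -0.45 for Bcat1, -1.10 to -0.67 for Plch1, -1.09 to -0.91 for Ccdc68 and -0.95 to -0.56 for Mpped2. The values nearest 0 for Arnt2 and Bcat1 came from averaging their probe sets. Over the settings the adjusted p for Arnt2 and Gulo ran from 0.122 to 0.894. Plch1 lay outside the intensity filter and has no value there. Dim probe sets near the array's lowest values limit what can be read of Plch1 and Gulo at 2 months.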
